A study of Mus musculus with 8 samples.

Results

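The genes of the laminin chains Lama1, Lama2, Lama3, Lama4, Lama5, Lamb1, Lamb2, Lamb3 and Lamc1 were compared between the endometrium of Thra1PV/+ and wild-type (WT) mice. They were chosen by gene symbol, are 9 of the 52325 genes in the deposited count table, and all 9 passed the filter on low counts that left 18174 genes for testing. Their Ensembl identifiers, in the order given, are ENSMUSG00000032796, ENSMUSG00000019899, ENSMUSG00000024421, ENSMUSG00000019846, ENSMUSG00000015647, ENSMUSG00000002900, ENSMUSG00000052911, ENSMUSG00000026639 and ENSMUSG00000026478. The tissue was uterine lining cut by laser from frozen sections of female mice synchronised at metestrus, and bulk RNA-seq was made from 4 mice of each genotype. Thra1PV/+ mice carry 1 knock-in allele of Thra with a C-terminal frameshift (PV), which gives a dominant negative thyroid hormone receptor TRα1 wherever the gene is expressed, beside 1 normal allele, and WT mice carry normal alleles only. All mutant mice come from a single knock-in line. Age, strain and the number of sections behind each library are not given for these mice in the sources used here, and the labels name no treatment. Thra itself was measured at a mean of 80.1 CPM (counts scaled to a common library size, after TMM scaling) in the mutant and 78.0 CPM in WT, and gene counts do not separate the PV allele from the normal one.

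Laminins are trimers of an alpha, a beta and a gamma chain that assemble into the sheet-like core of the basement membrane, on which epithelia, muscle fibres and vessels rest. The alpha chain largely sets where a laminin is found. Lama3 and Lamb3 encode chains of laminin-332, the laminin that anchors stratified epithelia such as epidermis through hemidesmosomes. Lama5 encodes the alpha chain typical of mature simple epithelia and Lama1 that of early embryonic basement membranes, whereas Lama2 is the alpha chain of muscle and Lama4 that of blood vessels and other mesenchymal tissue. Lamb1, Lamb2 and Lamc1 encode the beta and gamma partners of most laminins other than laminin-332.

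The libraries held 48791602 to 59818887 counts, and the correlation between libraries of a genotype ran from 0.901 to 0.974. The tissue makeup differed among libraries of both genotypes. The 8 endometrial stroma markers summed to 5182 CPM in Thra1PV/+ 1, 5014 CPM in WT 1 and 5127 CPM in WT 2, called stroma-rich below. The sums were 409 to 1184 CPM in Thra1PV/+ 2 to 4 and 1537 and 1730 CPM in WT 3 and WT 4. Fits without the 3 stroma-rich libraries thus compare Thra1PV/+ 2 to 4 with WT 3 and WT 4. The stroma sums still lay apart by genotype there, so these fits are not balanced for stroma. WT 1 also stood apart in the 8 smooth muscle markers, with a sum of 13143 CPM, where the remaining WT libraries had 573 to 1146 CPM and the mutant 146 to 687 CPM. The 8 simple epithelium markers were present throughout, from 2207 to 5912 CPM, and none of the 8 was called. The 6 squamous basal epithelium markers, with Krt5 and Trp63 among them, summed to 2273 to 3707 CPM in the mutant and 1.11 to 34.9 CPM in WT, and all 6 rose. Of the other marker lists, 1 of 6 pericyte genes (Notch3) and 1 of 3 tested mesothelium genes (Bnc1) rose. The other 5 pericyte and 2 mesothelium genes had negative log2 fold changes, so neither list rose as a set. No gene was called among 6 leukocyte, 4 Schwann cell, 2 gland, 8 stroma and 8 smooth muscle genes tested. All 8 stroma and all 8 smooth muscle genes had negative log2 fold changes (medians −1.31 and −3.96). All 6 leukocyte genes had positive ones (median 0.62), and the median over all tested genes was −0.05. Values of the genotypes lay apart for 1 stroma, 2 smooth muscle and 1 leukocyte gene, beside 6.04% of all tested genes. In bulk tissue, fewer cells of a type and less RNA per cell cannot be told apart.

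None of the 9 laminin chains was called at a fold change of at least 2 with an adjusted p of 0.1 or less in edgeR's quasi-likelihood test, and 0.99% of all tested genes were (180 genes). None of the 9 was called higher, beside 0.924% of tested genes, and none was called lower, beside 0.066%. Lama3 and Lamb3 had positive and the other 7 chains negative log2 fold changes, with a median of −0.36 beside −0.05 over all tested genes. Lamc1 was the single chain with an unadjusted p under 0.05, a level that 9.77% of tested genes reached. For no chain did the 4 mutant and 4 WT values lie apart, which was so for 6.04% of tested genes. DESeq2 called none of the 9 chains either, while it called 2.64% of its 29984 tested genes.

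**Figure D1:**
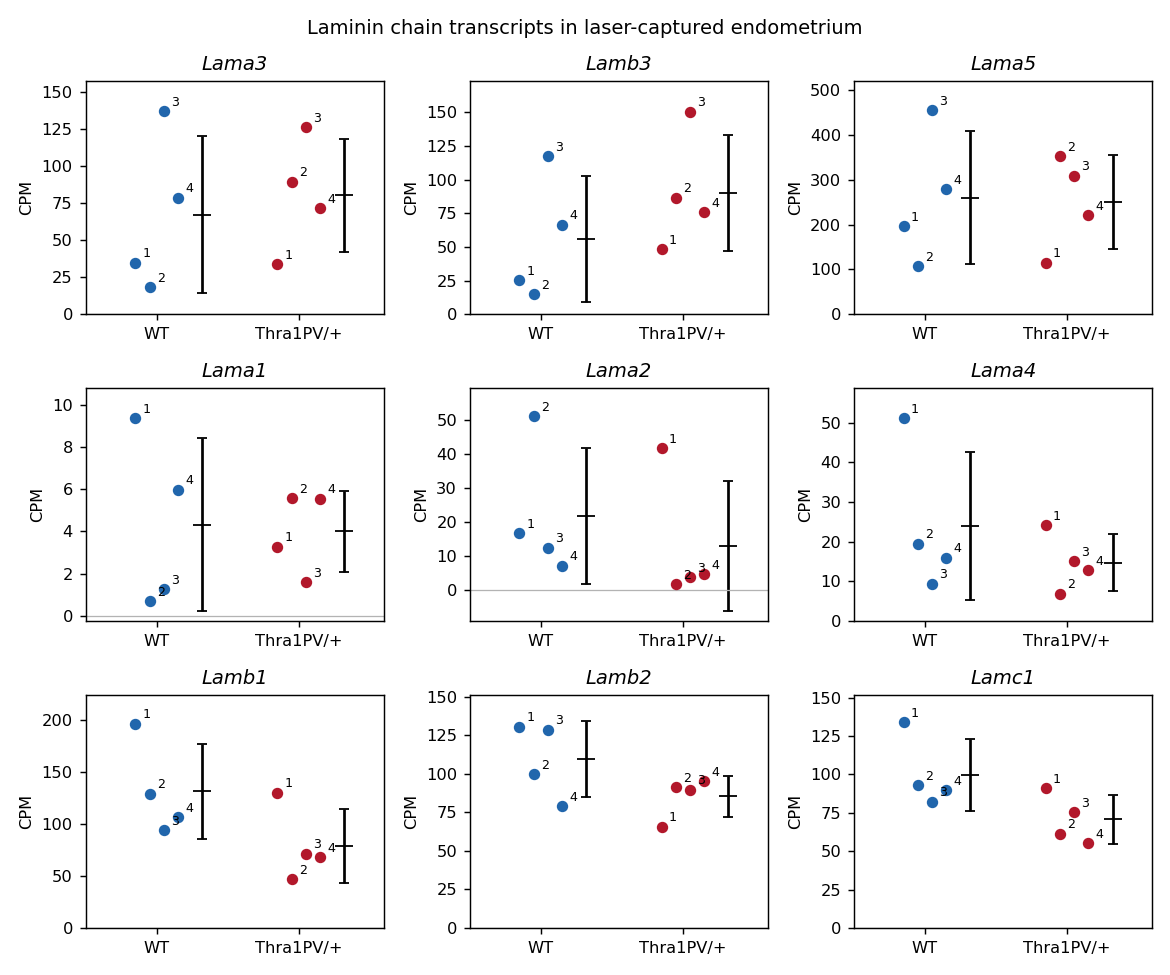
Each panel plots 1 laminin chain gene in CPM for the 4 WT and 4 Thra1PV/+ libraries (points numbered by replicate), with the mean and SD of each genotype beside them. The mutant and WT points overlap in all 9 panels, and Thra1PV/+ 1, WT 1 and WT 2 are the 3 lowest libraries for Lama3 and Lamb3.

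Among the chains of laminin-332, Lamb3 had the largest positive difference of the 9, yet its values overlapped between genotypes. The Lamb3 gene lies at chr1:193207699-193343878 on the plus strand of GRCm38 (GENCODE M21). Its span also covers the protein-coding genes G0s2 and Hsd11b1. Counts were estimated from transcripts and not over the span, and any effect of this overlap on the Lamb3 count was not tested. RefSeq start-site windows on GRCm38.p6, 250 bases before to 50 after a start, were held for 5 of the 9 chains. The stretch before the upstream of 2 Lamb3 start sites in that table, chr1:193301744-193301992 on the plus strand, lies inside the annotated gene but outside its exons. It is shown for comparison with those of Lama5 and Lamb1 below, and it holds no match to any motif searched.
Lamb3: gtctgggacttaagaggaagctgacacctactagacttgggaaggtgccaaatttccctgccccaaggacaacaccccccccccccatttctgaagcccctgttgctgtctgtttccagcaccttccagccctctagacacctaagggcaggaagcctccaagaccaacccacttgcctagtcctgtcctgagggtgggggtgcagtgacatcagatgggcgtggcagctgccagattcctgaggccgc

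Lamb3 was measured at 48.2, 86.6, 150 and 75.6 CPM in Thra1PV/+ 1 to 4 and at 25.2, 14.8, 118 and 66.6 CPM in WT 1 to 4. The low WT libraries were the stroma-rich WT 1 and WT 2, and Thra1PV/+ 1, also stroma-rich, was the lowest mutant library. The means were 90.2 ± 43.2 CPM in the mutant and 56.0 ± 46.7 CPM in WT (SD, n = 4 each). The log2 fold change was 0.69 ± 0.63 (SE; 95% confidence interval −0.76 to 2.13), with an adjusted p of 0.789 in edgeR's quasi-likelihood test. Without the 3 stroma-rich libraries the log2 fold change was 0.22, with an adjusted p of 0.893 in the same test. Lamb3 kept a positive log2 fold change under every alternative run, from 0.08 with the stroma markers as a covariate to 1.36 without WT 3.

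Lama3, which encodes the alpha chain of laminin-332, lies at chr18:12333819-12583013 on the plus strand of GRCm38. It was measured at 33.9, 89.4, 126 and 71.6 CPM in Thra1PV/+ 1 to 4 and at 34.9, 18.1, 137 and 78.7 CPM in WT 1 to 4. The highest Lama3 value of all 8 libraries was that of WT 3, and the 3 lowest were again those of the stroma-rich libraries. Lama3 had a log2 fold change of 0.26 ± 0.62 (SE; 95% confidence interval −1.16 to 1.68; adjusted p = 0.937, edgeR's quasi-likelihood test). It was −0.13 without the 3 stroma-rich libraries, −0.05 without Thra1PV/+ 3 and −0.02 without WT 2.

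Lama3 and Lamb3 moved through the libraries in nearly the same order but not in the same proportion. The log2 ratio of Lama3 to Lamb3 counts was −0.51, 0.05, −0.25 and −0.08 in Thra1PV/+ 1 to 4 and 0.47, 0.29, 0.22 and 0.24 in WT 1 to 4. All 4 mutant ratios were below all 4 WT ratios, and of the 36 pairs that the 9 chains form, it was the 1 pair with no overlap between genotypes. The values of single genes lay apart for 6.04% of all tested genes. A single pair out of 36 is therefore not read as a result about these chains. The ratio of Lama3 to Lamb3 needs no scaling between libraries, and it is given as a description. The mean log2 ratio was −0.20 ± 0.24 in the mutant and 0.31 ± 0.11 in WT (SD, n = 4 each). Of the stroma-rich libraries, Thra1PV/+ 1 had the lowest mutant ratio, and WT 1 and WT 2 had the highest WT ratios.

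Neither laminin-332 chain followed the squamous basal genes of the mutant in size. The log2 ratio of Lamb3 to Krt5, the keratin of basal cells in stratified epithelium, lay between −4.27 and −3.68 in the mutant and between 0.95 and 6.37 in WT. The log2 ratio of Lama3 to Col17a1, the transmembrane collagen of hemidesmosomes, lay between −2.30 and −0.81 in the mutant and between 3.76 and 6.48 in WT. Krt5 and Col17a1 were called genes of this comparison, so both ratios had to differ.

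Lama5, at chr2:180176373-180225859 on the minus strand of GRCm38, encodes the alpha chain of simple epithelium and had the highest TPM (a level per transcript length, scaled to a common total) of the 9 chains in 7 of 8 libraries. Thra1PV/+ 1 was the exception, where Lamc1 stood at 38.3 TPM and Lama5 at 36.5 TPM. The Lama5 start-site window had a GC content of 72.7% and 4 matches to the GC box GGGCGG, which was found in 35.7% of the 32851 RefSeq windows of this length. In the exon-free stretch before the start site, chr2:180225905-180226109 on the minus strand, the capitals mark 3 of these matches.
Lama5: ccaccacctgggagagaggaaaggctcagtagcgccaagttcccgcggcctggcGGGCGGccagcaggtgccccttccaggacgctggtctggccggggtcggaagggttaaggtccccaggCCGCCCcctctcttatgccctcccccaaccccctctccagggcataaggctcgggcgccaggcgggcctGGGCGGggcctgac

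Lama5 was measured at 115, 352, 309 and 221 CPM in Thra1PV/+ 1 to 4 and at 196, 107, 455 and 279 CPM in WT 1 to 4. As for Lama3 and Lamb3, the 3 stroma-rich libraries were the 3 lowest. Lama5 had a log2 fold change of −0.06 ± 0.47 (SE; 95% confidence interval −1.14 to 1.03; adjusted p = 0.984, edgeR's quasi-likelihood test), an interval that spans a 2-fold difference in either direction. Its sign depended on the scaling, at 0.05 with library size only, and it was −0.28 without the 3 stroma-rich libraries and −0.81 with the stroma markers as a covariate (adjusted p = 0.160, edgeR's quasi-likelihood test). Relative to Lama5, Lamb3 had a log2 count ratio of −1.26, −2.02, −1.04 and −1.55 in Thra1PV/+ 1 to 4 and of −2.96, −2.85, −1.95 and −2.07 in WT 1 to 4. These ratios overlapped only between Thra1PV/+ 2 and WT 3. The log2 ratio of Lama3 to Lama5 ran from −1.98 to −1.29 in the mutant and from −2.57 to −1.73 in WT, an overlap of the ranges.

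Lama1, the embryonic alpha chain at chr17:67697259-67822647 on the plus strand, had the lowest mean TPM of the 9 chains, at 0.07 to 1.04 TPM. It was measured at 3.27, 5.58, 1.59 and 5.55 CPM in Thra1PV/+ 1 to 4 and at 9.37, 0.686, 1.25 and 5.99 CPM in WT 1 to 4. The 4 WT values enclosed all 4 mutant values. Its log2 fold change was −0.11 ± 0.80 (SE; adjusted p = 0.982, edgeR's quasi-likelihood test), and it changed sign without WT 1 (0.63).

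The alpha chains of muscle, stroma and vessels were high in other libraries than Lama3 and Lama5. Lama2, at chr10:26980036-27619758 on the minus strand, was measured at 41.6, 1.64, 3.74 and 4.55 CPM in Thra1PV/+ 1 to 4 and at 16.6, 51.1, 12.4 and 7.05 CPM in WT 1 to 4. The 3 highest libraries were the stroma-rich ones, and within the other 5 libraries the 3 mutant values were below both WT values. The stroma marker sums of these 5 libraries lay apart by genotype in the same direction. The log2 fold change was −0.76 ± 1.04 (SE; 95% confidence interval −3.14 to 1.63; adjusted p = 0.874, edgeR's quasi-likelihood test). It was −1.51 without the 3 stroma-rich libraries (adjusted p = 0.311 in the same test), −2.66 without Thra1PV/+ 1 and 0.12 without WT 2, and it was called in none of these fits.

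Lama4, at chr10:38965515-39110188 on the plus strand, was measured at 24.1, 6.92, 15.1 and 12.8 CPM in Thra1PV/+ 1 to 4 and at 51.1, 19.4, 9.37 and 16.0 CPM in WT 1 to 4. WT 1, the library rich in smooth muscle markers, was the highest, Thra1PV/+ 1 and WT 2 came next, and the other 3 WT values lay within the range of the mutant. The log2 fold change was −0.70 ± 0.56 (SE; 95% confidence interval −1.97 to 0.57; adjusted p = 0.751, edgeR's quasi-likelihood test), and without WT 1 it was 0.02. The 8 endothelial markers, with Pecam1 and Cdh5 among them, summed to 85.8 to 274 CPM in the mutant and 112 to 334 CPM in WT, and none of the 8 was called. The part of vessels and muscle in the Lama4 values was not tested.

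**Figure D2:**
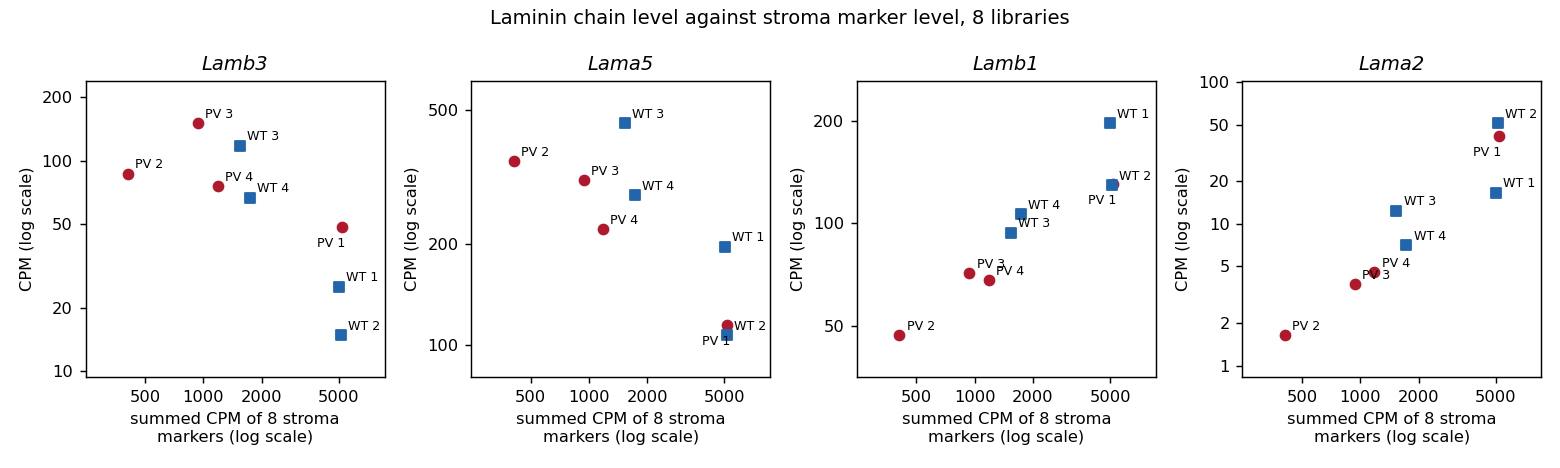
Each panel plots the CPM of 1 chain gene against the summed CPM of the 8 stroma markers in the 8 libraries, both on log axes, with Thra1PV/+ as circles and WT as squares. Lamb3 and Lama5 were lowest in the 3 libraries with 5014 to 5182 CPM of stroma markers, where Lamb1 and Lama2 were highest.

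Of the shared beta and gamma chains, all 3 had negative log2 fold changes and none was called. Lamb1 lies at chr12:31265234-31329644 on the plus strand. Its start-site window held 2 GC boxes and 1 match to the CCAAT box, which 37.4% of windows hold. The capitals in the exon-free stretch, chr12:31265043-31265145 on the plus strand, mark the CCAAT box, and both GC boxes lie outside it.
Lamb1: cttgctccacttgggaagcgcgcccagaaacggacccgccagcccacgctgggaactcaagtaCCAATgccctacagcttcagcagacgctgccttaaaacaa

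None of the 6 windows of the 5 chains held the nuclear receptor half-site AGGTCA, the AP-1 site TGANTCA or the TATA box TATAAA, which were found in 16.3%, 7.81% and 13.6% of all windows. Both strands were searched, and none of the 5 motifs is contained in another. The Lama2 window held 1 GC box, and the Lamb2 window and both Lamb3 windows held none of the motifs. A match is a description of the letters and is not shown to be a bound site.

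Lamb1 was measured at 130, 47.1, 71.3 and 68.2 CPM in Thra1PV/+ 1 to 4 and at 197, 129, 93.9 and 106 CPM in WT 1 to 4. Thra1PV/+ 1 alone reached the WT range, and the other 3 mutant values were below all 4 WT values. The means were 79.2 ± 35.7 CPM and 132 ± 45.7 CPM (SD, n = 4 each), a log2 fold change of −0.73 ± 0.35 (SE; 95% confidence interval −1.53 to 0.06; adjusted p = 0.559, edgeR's quasi-likelihood test). The value was −0.65 without the 3 stroma-rich libraries (adjusted p = 0.313 in the same test) and −0.23 with the stroma markers as a covariate, and its sign was negative under every alternative run.

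Lamc1, the gamma chain of most laminins at chr1:153218922-153332786 on the minus strand, was measured at 90.9, 61.4, 75.4 and 55.0 CPM in Thra1PV/+ 1 to 4 and at 134, 92.8, 82.2 and 89.5 CPM in WT 1 to 4. The pattern resembled that of Lamb1, with Thra1PV/+ 1 alone inside the WT range. The means were 70.7 ± 15.9 CPM and 99.7 ± 23.4 CPM (SD, n = 4 each). The log2 fold change was −0.50 ± 0.21 (SE; 95% confidence interval −0.99 to −0.01), with an unadjusted p of 0.0474 and an adjusted p of 0.506 in edgeR's quasi-likelihood test. Without WT 1 the log2 fold change was −0.28. The size of this difference, 1.41-fold, was under the 2-fold threshold whatever its p.

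Lamb2, the beta chain that takes the place of Lamb1 in muscle, kidney and mature vessels, lies at chr9:108479736-108490530 on the plus strand. It was the steadiest chain, at 65.8, 91.5, 89.7 and 95.2 CPM in Thra1PV/+ 1 to 4 and 131, 99.7, 129 and 79.0 CPM in WT 1 to 4. WT 4 lay within the mutant range and the other 3 WT values above it. Lamb2 had a log2 fold change of −0.36 ± 0.20 (SE; 95% confidence interval −0.81 to 0.10; adjusted p = 0.624, edgeR's quasi-likelihood test), and it was −0.13 without the 3 stroma-rich libraries. The gamma chain gene Lamc3, outside the 9 chains, was low, at 0.163 to 7.76 CPM. It stood at 5.56 CPM in Thra1PV/+ 1, 3.72 CPM in WT 1 and 7.76 CPM in WT 2, the stroma-rich libraries. In all other libraries it was at 0.774 CPM or less. Lamc3 had a log2 fold change of −0.92 ± 1.26 (SE; adjusted p = 0.874, edgeR's quasi-likelihood test).

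Levels of different chains were set side by side as TPM, whose sorted values the deposited table holds nearly the same in all libraries. Averaged over the 8 libraries, Lama5 stood at 108 TPM, Lamb2 and Lamc1 at 41.1 TPM each, Lamb1 at 22.3 TPM, Lamb3 at 20.1 TPM, Lama4 at 14.6 TPM, Lama3 at 13.4 TPM, Lama2 at 4.21 TPM and Lama1 at 0.495 TPM. The ranges of neighbours in this order overlapped in each case, from Lama5 down to Lama1. In the mutant means, Lamb3 (24.98 TPM) was above Lamb1 (16.9 TPM) and Lama3 (14.9 TPM) above Lama4 (10.5 TPM). In the WT means both pairs stood the other way round. Not every library followed: both pairs had the WT order in Thra1PV/+ 1 and the mutant order in WT 3. In WT 4, Lama3 (14.7 TPM) was also above Lama4 (12.7 TPM). As a second scaling, CPM was divided by transcript length, taken as that of the longest annotated coding transcript. Shares on this scale depend on that choice, and the coding transcripts of Lama3 run from 5551 to 10548 bases. On this scale the mean alpha share in WT was 15.8% for Lama3 and 13.3% for Lama4. That pair then did not switch, whereas Lamb3 and Lamb1 still did. The TPM of Lama4 and Lama5 also did not keep step with their CPM among libraries. The summed alpha chains ran from 62.6 to 186 TPM and the summed beta chains from 66.9 to 104 TPM. Transcript levels do not give the number of trimers.

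Lama5 made up the largest share of the alpha chain TPM in every library, 58.3% to 84.7%. Its mean share was 74.5% ± 11.48 in the mutant and 75.3% ± 5.65 in WT (SD, n = 4 each). The share of Lama3 was 9.07%, 9.53%, 16.0% and 10.2% in Thra1PV/+ 1 to 4 and 3.34%, 3.49%, 12.8% and 9.99% in WT 1 to 4. The low shares were those of WT 1 and WT 2, whereas the stroma-rich Thra1PV/+ 1 was close to the other mutant libraries but Thra1PV/+ 3. That closeness rested on the deposited TPM. With CPM divided by transcript length, the Lama3 share was 14.6% in Thra1PV/+ 1 and 20.5% to 28.4% in the other mutant libraries. In WT 1 to 4 it was then 10.4%, 8.70%, 23.2% and 20.7%, so that the stroma-rich libraries were the 3 lowest. The share of Lama2 was highest in Thra1PV/+ 1 (16.1%) and WT 2 (13.8%) and at most 2.003% in the other 6 libraries. The share of Lama4 was highest in WT 1, at 21.4%.

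Among the beta chains, Lamb2 held the largest mean share of the TPM, 47.8% ± 9.60 in the mutant and 50.4% ± 5.91 in WT (SD, n = 4 each). This order rested on the deposited TPM: with CPM divided by transcript length, Lamb3 was the largest in the mutant (38.0%, Lamb2 32.6%) and Lamb1 in WT (43.0%, Lamb2 36.2%). The share of Lamb3 was 19.4%, 30.3%, 44.0% and 26.7% in Thra1PV/+ 1 to 4 and 7.17%, 5.65%, 31.5% and 26.5% in WT 1 to 4. WT 3 and WT 4 lay within the mutant range, and WT 1 and WT 2 below it. Lamb1 took the converse course, at 41.1% in Thra1PV/+ 1 and 13.5% to 17.1% in the other mutant libraries, against 18.9% to 41.5% in WT. For none of the 8 alpha and beta chains did the shares of the genotypes lie apart.

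**Figure D3:**
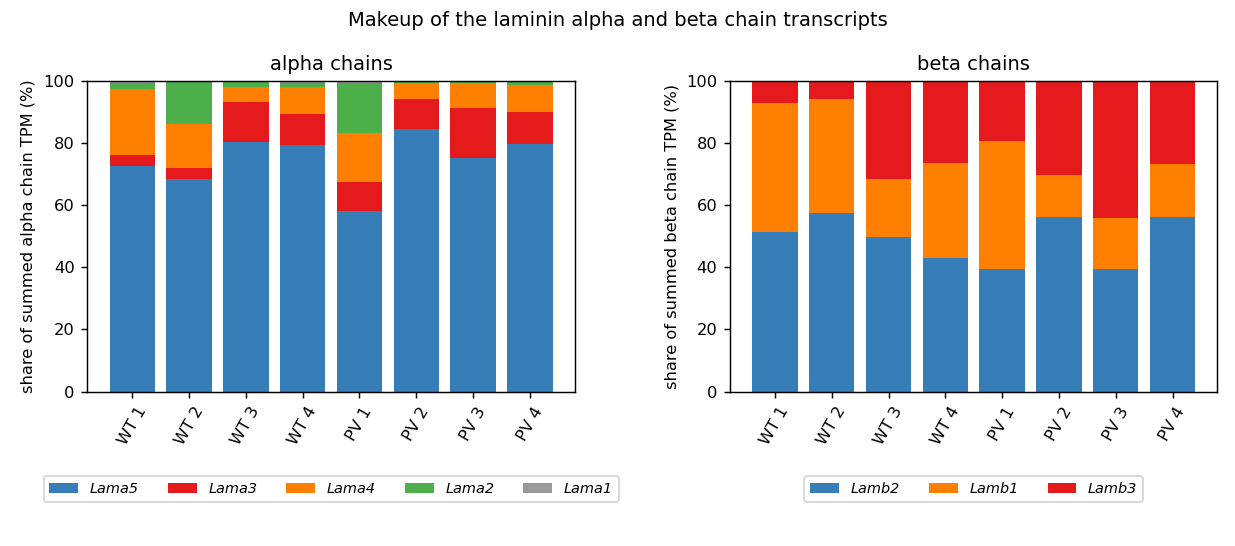
Stacked bars give each chain's share, in percent, of the summed alpha chain TPM (left) and beta chain TPM (right) in the 4 WT and 4 Thra1PV/+ (PV) libraries. Lama5 is the largest alpha share in all 8 bars, Lama1 is too small to see at 0.56% or less, and the Lamb3 share is smallest in WT 1 and WT 2.

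The genes whose levels followed each chain most closely were looked for among tested genes whose mean log2 CPM was 2 or higher, from deviations about the genotype means over the 8 libraries. These are the 3 highest of the values over all such genes, the libraries share the stroma-rich split, and they are given as a description. Lamb1 was followed most closely by Col4a2 (r = 0.999965), a chain of type IV collagen, the collagen network of the basement membrane. Lama4 was followed by Ecscr (r = 0.997), an endothelial surface protein, and Lama2 by Tmem100 (r = 0.992). Lama3 was followed by Ifne (r = 0.996), the interferon of reproductive tract epithelium, Lama5 by Clec2d (r = 0.998), and Lamb3 by Emc4 (r = 0.996). For Lamc1, Lamb2 and Lama1 the closest genes were Prx (r = 0.979), Rnf167 (r = 0.972) and Cpsf4 (r = 0.939). The next 2 genes for each chain were Ssb and Siglece for Lama1, Sh2b3 and Nipsnap2 for Lama2, Cda and 1700123O20Rik for Lama3, Lzic and Itsn1 for Lama4, and Hspa1b and Gm20559 for Lama5. They were Ulk2 and Ess2 for Lamb1, Ccndbp1 and Ccdc163 for Lamb2, Gpd1 and Elk3 for Lamb3, and Klhl6 and Dgkd for Lamc1.

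None of the 9 laminin receptor genes was called, beside 0.99% of all tested genes, with 6 positive and 3 negative log2 fold changes. Itga1 and Itga7, the alpha subunits of a collagen and laminin integrin and of the laminin integrin of muscle, had the largest differences. Itga1 was measured at 14.3, 6.68, 7.48 and 9.32 CPM in Thra1PV/+ 1 to 4 and at 64.7, 21.9, 14.2 and 23.7 CPM in WT 1 to 4. Thra1PV/+ 1 lay just above WT 3, so that the ranges overlapped, and the log2 fold change was −1.72 ± 0.49 (SE; adjusted p = 0.273, edgeR's quasi-likelihood test). Itga7 did not overlap between genotypes, which was so for 6.04% of all tested genes. It stood at 2.46 to 4.17 CPM in the mutant and 4.75 to 25.4 CPM in WT. Its log2 fold change was −1.66 (adjusted p = 0.381 in the same test). WT 1, rich in smooth muscle markers, was the highest library for both. Without WT 1 the log2 fold changes were −1.04 for Itga1 and −0.73 for Itga7, and neither was called. DESeq2 called both, with adjusted p of 0.0308 for Itga1 and 0.0997 for Itga7. Itga1 was also called by limma voom with quality weights (log2 fold change −1.63, adjusted p = 0.0938) and by edgeR with the simple epithelium markers as a covariate (−1.59, adjusted p = 0.0393).

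Itgb1, the beta subunit shared by many integrins, had a mean of 305 ± 41.8 CPM in the mutant and 456 ± 132 CPM in WT (SD, n = 4 each; log2 fold change −0.58, adjusted p = 0.454, edgeR's quasi-likelihood test). The subunits of the laminin-332 receptor of hemidesmosomes, Itga6 and Itgb4, had log2 fold changes of 0.06 and 0.51 (adjusted p = 0.980 and 0.737 in the same test). Itgb4 held to 74.4 to 80.0 CPM in the mutant, while WT ran from 22.8 to 103 CPM. The other receptors were Itga2 (0.14), Itga3 (0.17), the dystroglycan gene Dag1 (0.12) and Bcam (0.15), all within 0.2 of no change on the log2 scale.

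Hemidesmosomes and anchoring fibrils tie stratified epithelium to laminin-332. Of the 7 genes listed for them, Col17a1 was the single one called, beside 0.99% of all tested genes. It was measured at 167, 161, 221 and 162 CPM in Thra1PV/+ 1 to 4 and at 0.611, 1.34, 2.11 and 0.879 CPM in WT 1 to 4. The lowest mutant library was far above the highest WT library, and Col17a1 rose by 7.17 ± 0.44 on the log2 scale (SE; adjusted p = 0.0011, edgeR's quasi-likelihood test). Col7a1, the collagen of anchoring fibrils, was measured at 67.4, 78.0, 58.0 and 46.0 CPM in the mutant and at 10.6, 49.9, 12.7 and 11.1 CPM in WT. WT 2 alone reached the mutant range, and the log2 fold change was 1.56 ± 0.53 (SE; adjusted p = 0.370 in the same test). Without WT 2 it was 2.48 and called (adjusted p = 0.0094, edgeR's quasi-likelihood test), and it was also called by DESeq2 (adjusted p = 0.0787), by limma voom with quality weights (adjusted p = 0.0896) and without the 3 stroma-rich libraries.

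Plec, a plakin that links hemidesmosomes to keratin filaments, did not overlap between genotypes, which was so for 6.04% of all tested genes. It stood at 210 to 279 CPM in the mutant and 152 to 196 CPM in WT. Its log2 fold change of 0.51 ± 0.15 was under the 2-fold threshold and had an adjusted p of 0.277 in edgeR's quasi-likelihood test. Dst (−0.31), the other plakin, and the tetraspanin gene Cd151 (0.06) overlapped between genotypes. The 7 genes had a median log2 fold change of 0.51, beside −0.05 over all tested genes.

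**Figure D4:**
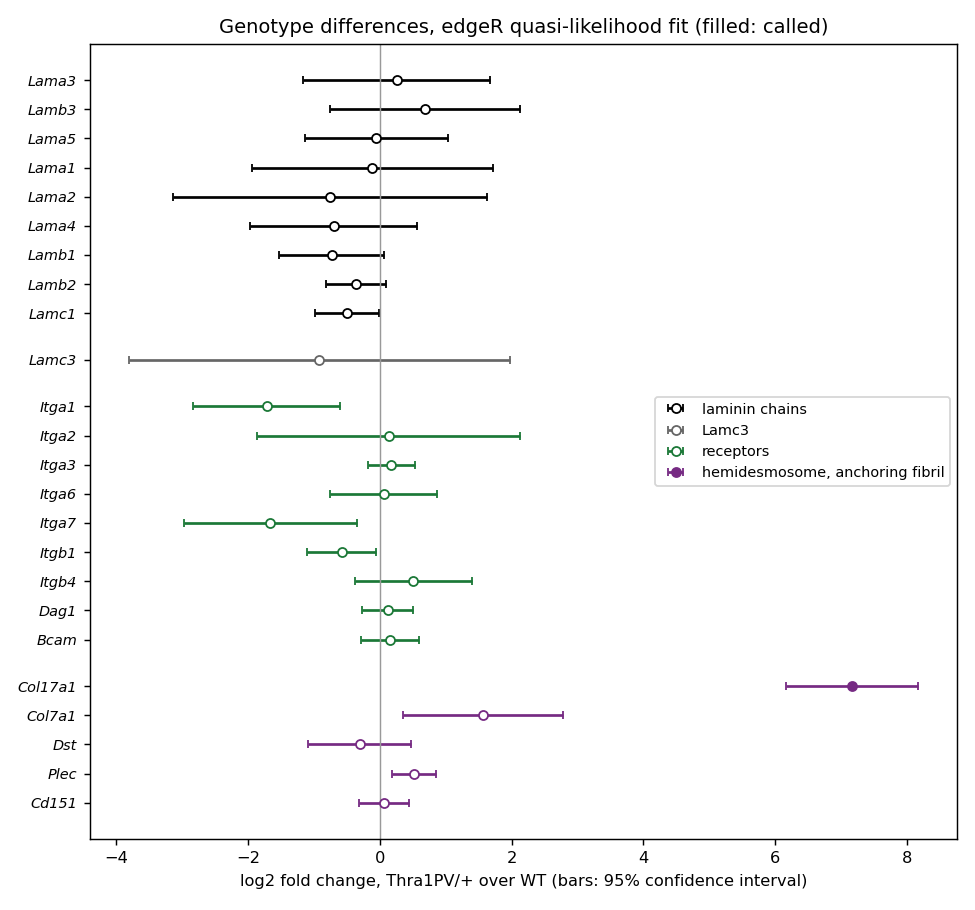
Points give the log2 fold change of Thra1PV/+ over WT with its 95% confidence interval for the 9 laminin chains, Lamc3, the 9 receptors and the remaining hemidesmosome genes. The intervals of 8 of the 9 laminin chains cross 0, that of Lamc1 ends at −0.01, and Col17a1 at 7.17 is the single filled (called) point.

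None of 21 other basement membrane genes was called, beside 0.99% of all tested genes. Of the 21, 17 had negative and 4 positive log2 fold changes, with a median of −0.41 beside −0.05 over all tested genes. The 3 with the highest mean TPM were Sparc (−0.63), a matrix-binding glycoprotein of stroma, Agrn (0.19), a heparan sulfate proteoglycan that binds laminin, and Fbln1 (0.39), a fibulin. Sparc was measured at 1058, 82.0, 219 and 246 CPM in Thra1PV/+ 1 to 4 and at 899, 895, 326 and 357 CPM in WT 1 to 4. Its 3 highest libraries were the stroma-rich ones, as for Lama2. The basement membrane genes together summed to 2873 to 3424 CPM in these 3 libraries and to 972 to 1688 CPM in the other 5.

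Netrins are secreted or anchored guidance proteins whose N-terminal part resembles that of laminin chains. None of the 5 tested was called, beside 0.99% of all tested genes. Ntn1 did not overlap between genotypes, which was so for 6.04% of all tested genes. It stood at 78.8, 49.8, 55.2 and 82.2 CPM in Thra1PV/+ 1 to 4 and 112, 93.4, 304 and 182 CPM in WT 1 to 4. All 4 mutant values were below the lowest WT value, with a log2 fold change of −1.38 ± 0.38 (SE; adjusted p = 0.256, edgeR's quasi-likelihood test). DESeq2 called Ntn1, with an adjusted p of 0.0405, and so did limma voom with quality weights (adjusted p = 0.0938) and edgeR's quasi-likelihood test without the 3 stroma-rich libraries (log2 fold change −1.92, adjusted p = 0.0783). Ntn4, a netrin of basement membranes that binds laminin, had a log2 fold change of −1.38 with overlapping values (adjusted p = 0.445, edgeR's quasi-likelihood test). Ntng1 (−1.63), Ntng2 (−0.98) and Ntn5 (0.07) reached at most 10.6 CPM in any library, and Ntn3 was not analysed here.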

How the data were processed

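RNA was taken from laser-captured endometrium of 4 Thra1PV/+ and 4 WT mice. Per the study's methods and the submitters' processing notes, stranded mRNA libraries were sequenced as read pairs, trimmed with Trimmomatic and quantified with Salmon against mouse mm10, and tested by the authors with DESeq2. The estimated counts that the authors deposited are not normalized. The deposited TPM values had almost identical sorted values in all 8 libraries (largest difference 0.291 TPM), as quantile normalization leaves them, and the sources used here do not state that step. The TPM table holds 1 further column of per-sample values that matches no sample and was not used.

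Counts were rounded and tested with edgeR 4.0.16 in R 4.3.3 (filterByExpr with a minimum count of 10, TMM, glmQLFit and glmQLFTest, genotype only), with Benjamini-Hochberg adjustment over all 18174 tested genes. Calls needed an adjusted p of 0.1 or less together with at least a 2-fold difference, as in the study. Log2 CPM used a prior count of 2. Alternatives used DESeq2 1.42.0, limma 3.58.1 (voom with quality weights, and log2 of TPM plus 1 or plus 0.1), other scalings and filters, each of the 8 libraries left out, and, chosen after seeing the data, marker covariates and the loss of 3 stroma-rich libraries. The edgeR, DESeq2 and limma scripts were tested on simulated data with 200 changed genes. The 105 rows that had no symbol were kept, and took 0.00896% of the counts or less in each library. Totals of 48791602 to 59818887 counts set the precision for low genes.

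The text names all 9 chains and Lamc3, every member of a related list of 10 genes or fewer, otherwise the called genes and the 3 with the highest mean TPM, and 3 genes most like each chain; 1 further gene of this rule is not reported here. Krt5, Trp63, Pecam1 and Cdh5 were named as examples of their marker lists. The chains, related lists and marker lists were chosen with earlier results of these data known. Nothing in the labels says how the replicates were bred or handled, so the p-values measure the spread between these samples.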

Additional observations from a re-analysis of the deposited data

Results flagged for a closer look

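In 84 groups of 4 libraries, over the named genes and the marker sums on the log2 scale, the gap of the highest or lowest library to its neighbour was divided by the range of the group. It passed Dixon's 95% critical value in 4 groups, where chance alone would give about 4.2 (1 in 20). Lamb2 was lowest in Thra1PV/+ 1 (ratio 0.837), at 65.8 CPM against 89.7 to 95.2 CPM in the other mutant libraries. Col17a1 was highest in Thra1PV/+ 3 (ratio 0.871), at 221 CPM against 161 to 167 CPM. Col7a1 was highest in WT 2 (ratio 0.881), at 49.9 CPM where the remaining WT values were 10.6 to 12.7 CPM. Ntng2 was highest in Thra1PV/+ 1 (ratio 0.937), at 6.92 CPM against 1.72 to 1.87 CPM.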

How the results depend on the processing

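None of the 9 laminin chains was called by edgeR, DESeq2 or limma under any alternative run, and with an unadjusted p under 0.05 as the sole criterion 1 chain (Lamc1) was. The signs of Lamb1, Lamb2, Lamb3 and Lamc1 held throughout. Those of the other chains did not: with the stroma markers as a covariate the log2 fold change was −0.51 for Lama3 and 0.25 for Lama4, and without the 3 stroma-rich libraries it was −0.13 for Lama3 and 0.27 for Lama1. Lama5 was at −0.81 with the stroma covariate, 0.22 by voom with quality weights, 0.054 with library size only and 0.00064 with upper-quartile scaling, and Lama1 was at 0.17 by limma on log2(TPM + 0.1). Over the fits that left out 1 library, Lama1 ran from −0.44 to 0.63, Lama2 from −2.66 to 0.12, Lama3 from −0.051 to 0.89, Lama4 from −1.005 to 0.020, Lama5 from −0.27 to 0.38 and Lamc3 from −3.05 to 0.057. The same range was −0.22 to 0.63 for Itga2, −0.11 to 0.33 for Itga6, −0.47 to 0.20 for Dst, −0.055 to 0.18 for Cd151 and −0.24 to 0.92 for Ntn5. With the stroma covariate the sign also turned for Lamc3 (0.81), Itga2 (−0.57), Itga6 (−0.37), Dst (0.18), Cd151 (−0.018), Ntn5 (−0.94), Ntng1 (0.16), Ntng2 (0.30), Sparc (0.18), Agrn (−0.13) and Fbln1 (−0.015). Without the 3 stroma-rich libraries it turned for Itga2 (−0.42), Itga6 (−0.29), Dag1 (−0.077), Dst (0.28), Ntn5 (−0.42) and Agrn (−0.031). The cause was not tested.

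The count of called genes was 180, of which 93.3% were higher. It was 793 by DESeq2 (71.5% higher), 311 by voom with quality weights (81.4% higher), 455 with the stroma covariate (72.3% higher), 454 with the simple epithelium covariate (69.2% higher), 204 without the 3 stroma-rich libraries (84.3% higher), 119 at an adjusted p of 0.05 or less, 81 with at least 10 counts in every library and 1775 (51.7% higher) at an unadjusted p under 0.05. Leaving out 1 library gave 81 to 167 calls, with 81 without Thra1PV/+ 3, 114 without WT 4 and 116 without Thra1PV/+ 2. Replicate numbers were shared between genotypes, and the deviations of same-numbered libraries had correlations of 0.27, −0.44, 0.34 and −0.16. Correlations of both signs, in libraries that differ in stroma content, cannot decide whether same-numbered libraries were paired. The labels name no pairing. The fit with the replicate number as a block called 82 genes and none of the 9 chains, and gave 0.34 for Lama1. With CPM divided by transcript length in place of TPM, the share was 62.8% in the mutant and 60.4% in WT for Lama5, 21.7% and 15.8% for Lama3, 1.34% and 1.36% for Lama1, and 32.6% and 36.2% for Lamb2, and it was 43.0% in WT for Lamb1 and 38.0% in the mutant for Lamb3, so that Lamb2 was no longer the largest beta chain in either genotype. Lamc3 and Ntng1 gave no value with at least 10 counts in every library. With 4 libraries a group, the 95% confidence intervals of the chains ran from −0.81 to 0.10 at the narrowest (Lamb2) and from −3.14 to 1.63 at the widest (Lama2).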

Other observations

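The 2 deposited tables gave different pictures of Lama4 and Lama5. The TPM obtained per CPM of a gene should be nearly constant among libraries when its transcripts keep their effective length and TPM are scaled linearly. The deposited TPM look quantile-normalized, a step that need not keep this ratio constant. The ratio varied by 1.13-fold to 1.45-fold for the other 7 chains. For Lama4 it varied 3.13-fold, from 0.414 in Thra1PV/+ 1 to 1.30 in Thra1PV/+ 2, so that these libraries stood at 24.1 and 6.92 CPM but at 9.98 and 8.97 TPM. For Lama5 it varied 2.17-fold, from 0.317 in Thra1PV/+ 1 to 0.689 in WT 1. Transcript-level estimates were not analysed here, and the source of this spread was not tested.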
